A study of Homo sapiens with 6 samples.

Results

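The genes described here are 10 immediate early transcription factor genes of the EGR1 and AP-1 group, measured by RNA sequencing (RNA-seq) in the established neuroblastoma line SK-N-AS, of human origin. The set was fixed by name, as *EGR1*, *EGR3*, *FOS*, *FOSL1*, *FOSL2*, *JUN*, *JUNB*, *JUND*, *IER2* and *ATF3*, and holds 10 of the 58735 Ensembl genes listed per library. This set and the further gene lists below were chosen with earlier results of these data known. The cells carried either a negative control small interfering RNA (NC) or a small interfering RNA against Prp19 (siPrp19), a pre-mRNA splicing factor encoded by *PRPF19*. Transfection lasted 72 h by the labels of all 6 libraries and less by the published methods. The comparison asked how knockdown of Prp19 changed these genes. The model is a single cell line with a transient knockdown, and the labels name no stimulus that would induce the genes.

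Immediate early genes are transcribed within minutes of a growth factor, stress or depolarisation signal, without prior protein synthesis. Kinases of the MAPK pathway activate ETS factors that act with SRF at the promoters of genes such as *EGR1* and *FOS*. The Fos proteins (FOS, FOSB, FOSL1, FOSL2) pair with Jun proteins (JUN, JUNB, JUND) to form AP-1, which binds the TGACTCA element. EGR1 and EGR3 are zinc finger factors that bind GC-rich elements, ATF3 is a stress-responsive member of the ATF family, and IER2 is a short nuclear protein.

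The libraries are named by the value column of each deposited file, NCa, NCb, NCc, siPrp19a, siPrp19b and siPrp19c, and grouped by the sample whose description is that name, with n = 3 in each group. NCb is recorded under a sample labelled siPrp19, and siPrp19b under a sample labelled NC. NCc and siPrp19a are recorded under another sample of their own group. *PRPF19* was at 83.0, 83.1 and 93.0 FPKM (fragments per kilobase of exon, scaled to depth) in NCa, NCb and NCc. It was at 19.6, 19.1 and 18.5 FPKM in siPrp19a, siPrp19b and siPrp19c, so its level followed the column name in all 6 libraries. Its log2 fold change was -2.12 ± 0.07 (SE, adjusted p = 0.000215, limma). Depth was 14887132 to 19977811 recovered reads. The mitochondrial share of reads was 8.29% in siPrp19a and 5.15% to 5.49% in the other libraries. Chi-square per degree of freedom, near 1 for libraries that differ by sampling noise only, was 1.72 between NCa and NCb and 2.59 between siPrp19b and siPrp19c. It was 18.1 to 46.7 for the other 13 pairs. Among these, pairs within a group had 18.05 to 21.07 and pairs between groups 18.09 to 46.65, so the ranges overlapped. The libraries were kept as separate samples, and nothing in the labels ties the close pairs to a shared culture or run. The p-values therefore measure the spread between these libraries, which may be partly technical.

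The promoter sequences of 3 genes are shown because these genes carry the results below. *EGR1* and *FOS* stood higher in siPrp19 libraries and *JUND* lower. Each run ends before the RefSeq start site and outside the gene as GENCODE 29 places it, on GRCh38.p14, 5′ to 3′ on the strand of the gene. It has 250 bases for *EGR1* and *JUND* and 196 for *FOS*. *EGR1* is on the plus strand (chr5:138465229-138465478), *FOS* on the plus strand (chr14:75278578-75278773) and *JUND* on the minus strand (chr19:18281623-18281872). Capitals mark the CArG box, the element bound by SRF, in *EGR1* and the cAMP response element (CRE) in *JUND*.
EGR1: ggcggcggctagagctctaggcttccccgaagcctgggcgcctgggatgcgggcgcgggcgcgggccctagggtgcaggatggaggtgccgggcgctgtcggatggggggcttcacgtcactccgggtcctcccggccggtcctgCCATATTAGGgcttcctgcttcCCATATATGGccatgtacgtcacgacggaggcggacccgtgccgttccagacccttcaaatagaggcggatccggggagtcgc
FOS: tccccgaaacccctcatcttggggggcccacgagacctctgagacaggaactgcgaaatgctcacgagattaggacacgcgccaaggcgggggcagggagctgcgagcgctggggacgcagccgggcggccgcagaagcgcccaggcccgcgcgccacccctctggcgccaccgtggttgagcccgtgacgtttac
JUND: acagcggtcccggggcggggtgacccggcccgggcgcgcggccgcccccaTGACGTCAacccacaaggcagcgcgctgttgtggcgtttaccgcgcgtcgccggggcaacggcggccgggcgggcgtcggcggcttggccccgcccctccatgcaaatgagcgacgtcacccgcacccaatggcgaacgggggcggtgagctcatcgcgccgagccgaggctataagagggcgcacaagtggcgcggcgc

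The search covered AP-1 (TGACTCA), CRE (TGACGTCA), the CArG box, the ETS core (CCGGAA) and the EGR element (GCGTGGGCG or GCGGGGGCG) on both strands, in windows of 250 bases before and 50 after the start site. The table held windows for 8 of the 10 genes. *EGR1* held 2 CArG boxes, CCATATTAGG with its first base at -105 and CCATATATGG with its first base at -83 from the start site. A CArG box was in 1.29% of the 35116 promoters of this length. *JUND* held the CRE at -200, an element in 1.85% of promoters. Among the other genes, *FOSL2* held an AP-1 element at +5 (4.95% of promoters) and *IER2* an ETS core at -26 (17.2% of promoters). None of these letters was in the windows of *FOS*, *JUN*, *JUNB* or *ATF3*, and the EGR element, present in 5.77% of promoters, was in 0 of the 8. Elements outside the windows were not searched for, so these absences hold for the windows only. The motifs that were found do not overlap each other. The GC content was 69.3% for *EGR1*, 64.7% for *FOS* and 77.0% for *JUND*, against a median of 58.7%. These matches describe letters only, since no binding was measured.

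Of the 10 genes, 9 had a mean of at least 1 FPKM over the 6 libraries and were tested, among 13718 genes in all. *FOS* rose and *JUND* fell in siPrp19 libraries, and the other 7 did not pass the adjusted threshold of 0.05 by limma on log2(FPKM + 1). Over all genes tested, 7.94% passed (1089 genes), 2.57% as higher and 5.37% as lower. The 2 genes called, 1 in each direction, are 2 of 9. The FPKM of the groups did not overlap for *EGR1*, *FOS*, *FOSL1* and *JUND*, which is 4 of the 9, against 31.3% of all genes tested. The median log2 fold change of the 9 genes was -0.05, against -0.02 for all genes tested. The plot of FPKM by library shows all 10 genes.

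**Figure D1:**
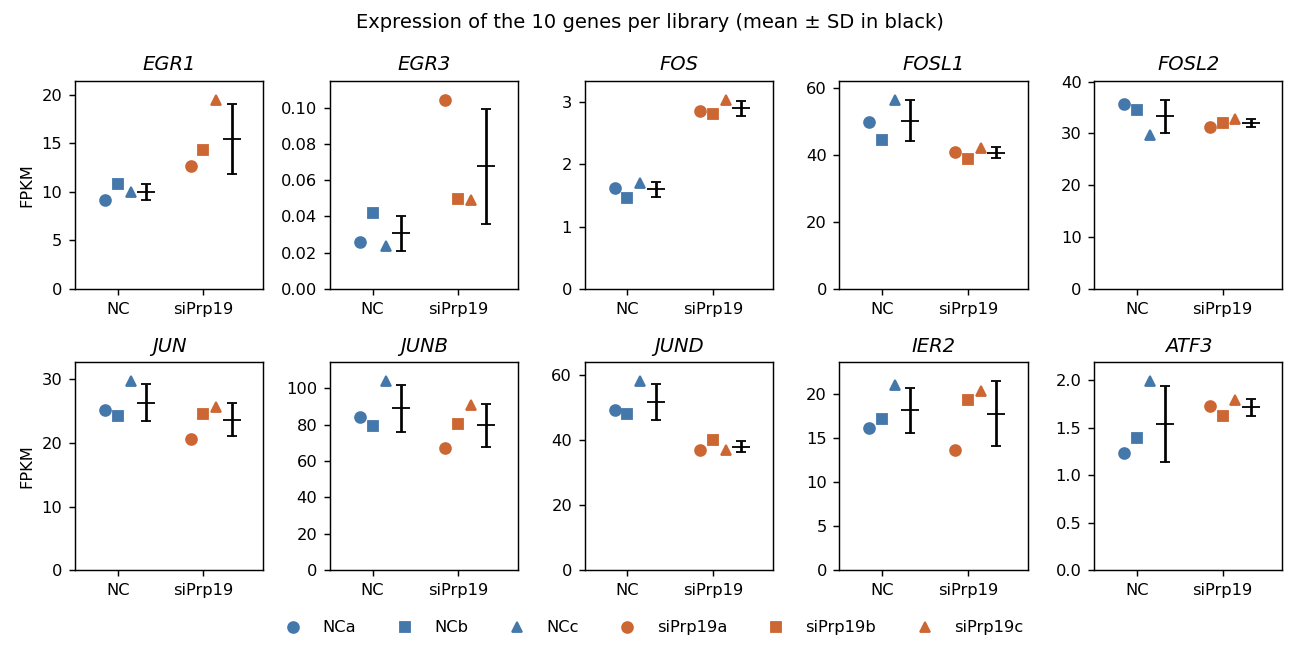
FPKM of each of the 10 genes (vertical axes, linear from 0, scaled per gene) in the 3 NC libraries (blue) and the 3 siPrp19 libraries (orange), with a, b and c as circle, square and triangle and the group mean ± SD in black. *EGR1*, *FOS*, *FOSL1* and *JUND* have no overlap between groups, and *FOS* lies between 1.47 and 1.71 FPKM in NC and between 2.81 and 3.03 FPKM in siPrp19 libraries; *EGR3*, which also shows no overlap, rests on 2 to 8 reads per library.

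In NC libraries, the genes spanned a wide range of levels per length. *JUNB* was highest at 89.0 ± 13.0 FPKM (SD, n = 3), followed by *JUND* at 51.8 ± 5.50, *FOSL1* at 50.2 ± 6.03, *FOSL2* at 33.3 ± 3.15, *JUN* at 26.3 ± 2.93 and *IER2* at 18.1 ± 2.58 FPKM. *EGR1* was at 9.99 ± 0.836 FPKM, while *FOS* and *ATF3* were at 1.60 ± 0.121 and 1.54 ± 0.396 FPKM, and *EGR3* was last. In this order, 2 neighbouring pairs had ranges that overlapped, *JUND* with *FOSL1* and *FOS* with *ATF3*. The most abundant Fos family transcript in these cells was thus *FOSL1*, with *FOS* at a low level. In siPrp19 libraries, the order was the same except that *FOSL1* stood before *JUND*, a pair whose ranges overlapped in both groups. *EGR1* at 15.5 ± 3.57 FPKM then overlapped *IER2* at 17.8 ± 3.65 FPKM.

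*EGR1* (ENSG00000120738, chromosome 5, 138465490 to 138469315 on GRCh38 in GENCODE 29, as for the genes that follow, plus strand, 2 exons) encodes the zinc finger factor induced by serum and by many other stimuli. It was at 9.18, 10.8 and 9.95 FPKM in NCa, NCb and NCc, and at 12.6, 14.3 and 19.5 FPKM in siPrp19a, siPrp19b and siPrp19c. Every siPrp19 library lay above every NC library, and siPrp19c was the highest. These values rest on 456 to 1283 reads. The log2 fold change was 0.56 ± 0.15 (SE, 95% interval 0.21 to 0.92), and the unadjusted p = 0.00741 and adjusted p = 0.0719 from limma put it outside the threshold. The ratio of the means was 1.55. Voom on the recovered reads, which called 10.0% of the genes tested, gave *EGR1* a log2 fold change of 0.63 (adjusted p = 0.0356, limma). Without siPrp19a the value was 0.69 (adjusted p = 0.0454, limma), and without siPrp19c it was 0.40 (adjusted p = 0.124).

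*EGR3*, a relative of *EGR1* that is also induced early, was close to the limit of detection. It had 2, 3 and 2 reads in NCa, NCb and NCc and 8, 4 and 5 reads in siPrp19a, siPrp19b and siPrp19c. Counts of this size, with NC libraries at or under the floor of 3 reads, give no fold change, and *EGR3* was not tested. Its exons also overlap those of a gene on the opposite strand (ENSG00000253125), and it is not stated whether counting used the strand.

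*FOS* (ENSG00000170345, chromosome 14, 75278774 to 75282230, plus strand) encodes the founding Fos protein, whose transcript is short-lived and strongly inducible. It was at 1.62, 1.47 and 1.71 FPKM in NCa, NCb and NCc, and at 2.85, 2.81 and 3.03 FPKM in siPrp19a, siPrp19b and siPrp19c. The values within each group were close to each other and the groups were well apart. The depth behind them was 70 to 206 reads per library. The mean rose from 1.60 ± 0.121 to 2.90 ± 0.118 FPKM (SD, n = 3), a ratio of 1.81. The log2 fold change was 0.59 ± 0.08 (SE, 95% interval 0.39 to 0.79, adjusted p = 0.0110, limma). On this scale, the added 1 FPKM understates the change of a gene at so low a level, and voom on the recovered reads gave 0.87 (adjusted p = 0.00464, limma).

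*FOSL1* (ENSG00000175592, chromosome 11, 65892049 to 65900573, minus strand) encodes FRA1, a Fos protein without the transactivation domain of FOS. It was at 49.9, 44.3 and 56.4 FPKM in NCa, NCb and NCc, and at 40.8, 38.8 and 42.1 FPKM in siPrp19a, siPrp19b and siPrp19c. The groups did not overlap, but the closest values, 44.3 and 42.1 FPKM, lay nearer to each other than the NC libraries did among themselves. The log2 fold change was -0.29 ± 0.10 (SE, 95% interval -0.53 to -0.06, adjusted p = 0.127, limma). *FOSL2* (ENSG00000075426, chromosome 2, 28392448 to 28417312, plus strand) encodes FRA2, the other Fos protein of this kind. It ranged from 29.8 to 35.7 FPKM in NC and from 31.2 to 32.7 FPKM in siPrp19 libraries, so that the siPrp19 values lay inside the NC range. Its log2 fold change was -0.05 ± 0.08 (SE, 95% interval -0.25 to 0.15, adjusted p = 0.751, limma), a value that turned positive under quantile normalization and on recovered read totals.

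*JUND* (ENSG00000130522, chromosome 19, 18279760 to 18281622, minus strand) is a gene with 1 exon whose protein is present in resting cells more than the other Jun proteins. It was at 49.3, 47.9 and 58.1 FPKM in NCa, NCb and NCc, and at 37.0, 40.1 and 37.1 FPKM in siPrp19a, siPrp19b and siPrp19c. Every siPrp19 library lay below every NC library, and NCc was the highest. The mean fell from 51.8 ± 5.50 to 38.1 ± 1.74 FPKM (SD, n = 3). The log2 fold change was -0.43 ± 0.09 (SE, 95% interval -0.65 to -0.21, adjusted p = 0.0365, limma).

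*JUN* (ENSG00000177606, chromosome 1, 58780788 to 58784327, minus strand, 1 exon) encodes the main partner of FOS in AP-1. It was at 25.1, 24.2 and 29.6 FPKM in NCa, NCb and NCc and at 20.7, 24.6 and 25.6 FPKM in siPrp19a, siPrp19b and siPrp19c. The groups overlapped, with siPrp19a the lowest library. The log2 fold change was -0.15 ± 0.11 (SE, 95% interval -0.41 to 0.11, adjusted p = 0.475, limma). *JUNB* (ENSG00000171223, chromosome 19, 12791496 to 12793315, plus strand, 1 exon), a Jun protein that can restrain JUN, was at 84.1, 79.1 and 104 FPKM in NC libraries and at 67.2, 80.4 and 90.9 FPKM in siPrp19 libraries. Here too siPrp19a was the lowest and NCc the highest, and the log2 fold change was -0.16 ± 0.14 (SE, 95% interval -0.50 to 0.18, adjusted p = 0.559, limma). The exons of *JUNB* overlap those of *HOOK2* on the opposite strand.

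*IER2* (ENSG00000160888, chromosome 19, 13150415 to 13154908, plus strand) was at 16.2, 17.2 and 21.0 FPKM in NC libraries and at 13.6, 19.3 and 20.4 FPKM in siPrp19 libraries. Its log2 fold change was -0.04 ± 0.16 (SE, 95% interval -0.43 to 0.35, adjusted p = 0.913, limma), and its sign changed with the scaling. Its exons overlap a gene on the opposite strand (ENSG00000267598). *ATF3* (ENSG00000162772, chromosome 1, 212565334 to 212620777, plus strand), a gene induced by amino acid, oxidative and genotoxic stress, was at 1.24, 1.39 and 1.99 FPKM in NC and at 1.72, 1.62 and 1.79 FPKM in siPrp19 libraries. All 3 siPrp19 values lay inside the NC range, and the log2 fold change was 0.11 ± 0.13 (SE, 95% interval -0.20 to 0.41, adjusted p = 0.678, limma). Without NCa the value of *ATF3* was 0.02, and without NCc it was 0.23. *JUN*, *JUNB* and *IER2* were all lowest in siPrp19a, the library with the highest mitochondrial share. Without siPrp19a, the log2 fold change was -0.06 for *JUN*, -0.05 for *JUNB* and 0.13 for *IER2*. Without NCc, it was -0.06, -0.05 and 0.07.

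For single values, the two-sided exact permutation test cannot go below p = 0.1 with 3 libraries against 3. It gave 0.1 for *EGR1*, *FOS*, *FOSL1* and *JUND*.

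The calls depended on which libraries entered the fit, and that of *JUND* also on the processing. With all 6 libraries by column name, *JUND* had an adjusted p of 0.0892 without the filter and 0.0558 on recovered read totals (limma). With the replicate block it was 0.0603. Of 17 alternatives, *JUND* passed the threshold in 6 and *FOS* in 10. With the 4 libraries whose column name and recorded sample state the same group (NCa, NCc, siPrp19a, siPrp19c), 2 of 13718 genes passed (0.0146%). *FOS* then had a log2 fold change of 0.57 (adjusted p = 0.201, limma), *JUND* of -0.52 (0.246) and *EGR1* of 0.66 (0.292). When NCa was averaged with NCb and siPrp19b with siPrp19c, an alternative chosen after seeing the data, 2 genes passed (0.0146%), and *FOS* had 0.57 (0.186), *JUND* -0.48 (0.284) and *EGR1* 0.51 (0.289). With the libraries grouped as recorded, limma called 0 genes (0.00%), with 191 under 0.05 before adjustment, and *FOS*, *JUND* and *EGR1* had log2 fold changes of 0.17, -0.26 and 0.32. Leaving out NCa, NCb, siPrp19b or siPrp19c ended the call of *FOS* (adjusted p-values 0.0510 to 0.0649 by limma). Leaving out any library except NCc ended the call of *JUND* (0.0739 to 0.140). The direction of *EGR1*, *FOS* and *JUND* was the same in all 17 alternatives, but most of these could not have reversed it. With groups that do not overlap, leaving out or averaging libraries by column name cannot change the direction. The fits without the filter, without the trend and with the replicate block keep the fold change of the main fit by design.

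**Figure D2:**
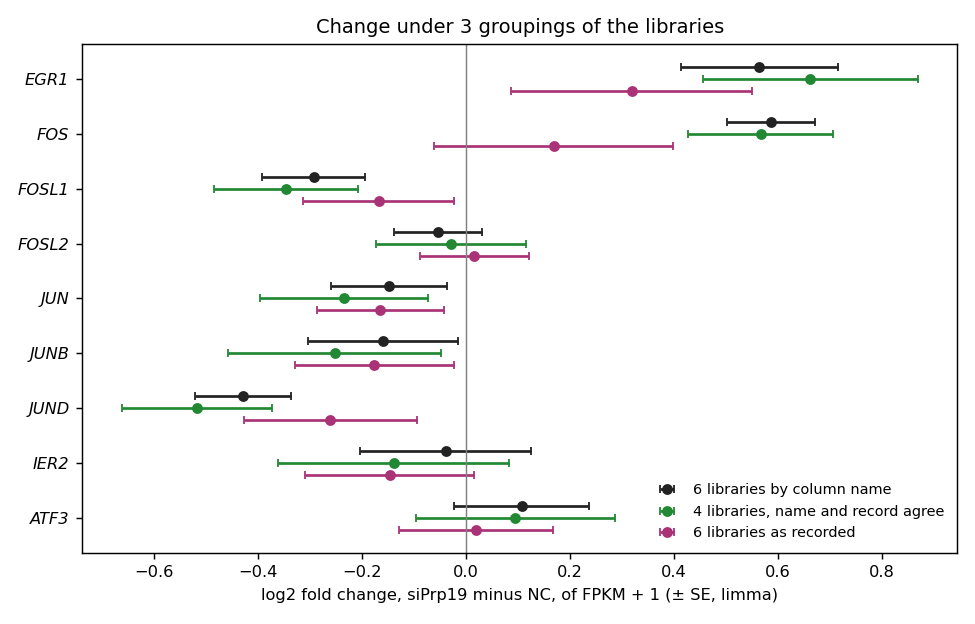
Log2 fold change of FPKM + 1 (horizontal axis, siPrp19 minus NC, points ± SE from limma) for the 9 genes tested, with all 6 libraries grouped by column name (black), with the 4 libraries whose name and record agree (green) and with the 6 libraries as recorded (purple). *FOS* is at 0.59 in black and 0.57 in green, and *JUND* at -0.43 and -0.52, while in purple *FOS* is at 0.17, *JUND* at -0.26 and *EGR1* at 0.32.

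The make-up of the AP-1 families was compared as the percent of summed FPKM. Within the Fos family, *FOS* took 1.84%, 1.82% and 1.93% in NCa, NCb and NCc and 3.79%, 3.79% and 3.87% in siPrp19a, siPrp19b and siPrp19c. Its share thus went from 1.87% ± 0.0596 to 3.82% ± 0.0427 (SD, n = 3) with no overlap. *FOSL1* took 58.6% ± 4.67 in NC and 53.5% ± 0.966 in siPrp19 libraries, again without overlap, with the lowest NC value at 55.0% and the highest siPrp19 value at 54.2%. *FOSL2* took 39.1% ± 4.76 and 42.1% ± 0.952, and *FOSB* 0.303% to 0.635% over the 6 libraries. The summed Fos family was at 85.5 ± 4.33 FPKM in NC and 75.9 ± 2.24 FPKM in siPrp19 libraries. The exact permutation test gave p = 0.1 for the shares of *FOS* and *FOSL1* and for this sum.

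Within the Jun family, *JUNB* held the largest share, 53.2% ± 0.940 in NC and 56.1% ± 2.75 in siPrp19 libraries (SD, n = 3). *JUND* took 31.1%, 31.7% and 30.3% in NCa, NCb and NCc and 29.6%, 27.6% and 24.1% in siPrp19a, siPrp19b and siPrp19c, so the groups did not overlap. *JUN* took 15.8% ± 0.256 in NC and 16.7% ± 0.207 in siPrp19 libraries. The exact permutation test gave p = 0.1 for the shares of *JUND* and *JUN*, the smallest value it can give. The summed level of all 7 genes was 253 ± 24.6 FPKM in NC and 217 ± 16.0 FPKM in siPrp19 libraries (exact permutation p = 0.2).

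**Figure D3:**
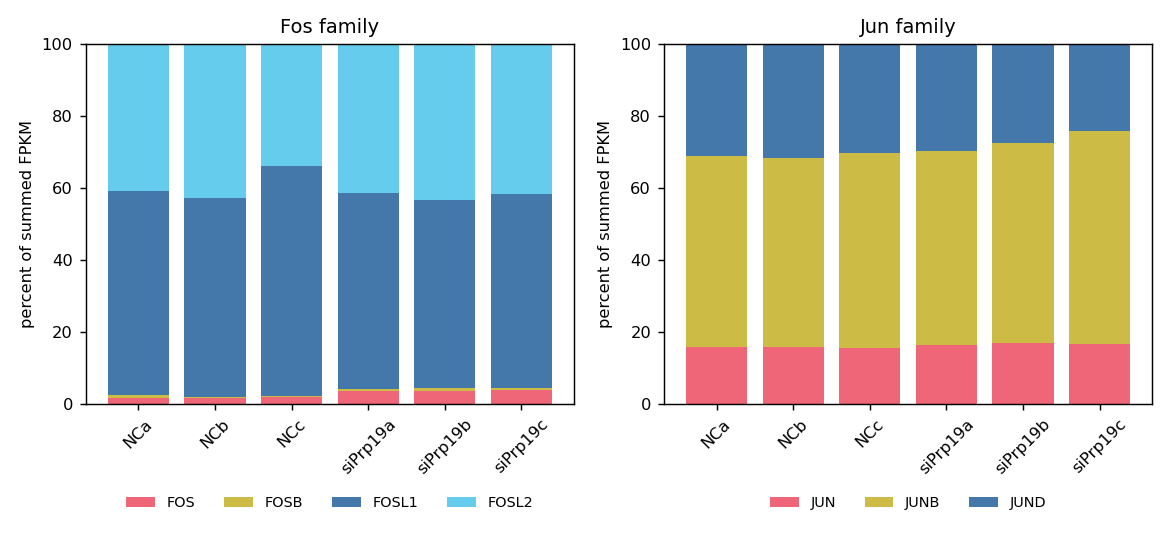
Percent of summed FPKM (vertical axes, 0 to 100) taken by each gene of the Fos family (left) and the Jun family (right) in each of the 6 libraries, as stacked bars. *FOSL1* and *FOSL2* fill most of the Fos bars and *FOS* a thin part that is 1.82% to 1.93% in NC and 3.79% to 3.87% in siPrp19 libraries.

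The genes whose profile over the 6 libraries was most like that of *EGR1* were named by the Euclidean distance between centred log2(FPKM + 1) profiles. They were *TRIB3* (distance 0.205), *KMT5AP2* (0.213), *CDKN1A* (0.265), ENSG00000272836 (0.269) and *SPAG4* (0.278). *TRIB3* was at 12.9, 13.7 and 14.8 FPKM in NC and at 16.9, 20.2 and 24.2 FPKM in siPrp19 libraries. The nearest gene of the set to *EGR1* was *FOS*, at rank 118 (0.441). For *FOSL1*, the nearest were *LUC7L* (0.0326), *THOC6* (0.0820), *NME7* (0.0894), *LINC00221* (0.0936) and *HPCAL1* (0.105), and the nearest of the set was *JUND*, at rank 611 (0.255). These distances describe 6 shared libraries and carry no test.

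Among 35 other immediate early genes, 29 were tested, 5 rose and 4 fell, with a median log2 fold change of 0.08 against -0.02 for all genes tested. Beside these and the counts of the lists that follow stand the shares over all genes tested, 2.57% higher, 5.37% lower and 7.94% in either direction. *DUSP1*, a phosphatase that inactivates MAP kinases, rose from 11.7 ± 0.912 to 22.3 ± 3.66 FPKM (SD, n = 3), a log2 fold change of 0.87 (adjusted p = 0.0111, limma). *DUSP2*, a nuclear phosphatase of the same family, rose by 0.70 (adjusted p = 0.0215), and *BTG2*, an antiproliferative gene, by 0.57 (0.0219). In NC libraries, *DUSP2* was at 0.772 to 0.948 FPKM, under the filter of 1 FPKM. It was therefore tested, and counted as risen, only through its siPrp19 values, and it had 22 to 91 reads. *ZFP36L2*, which encodes a protein that speeds the decay of AU-rich messages, fell from 17.9 ± 1.40 to 10.4 ± 1.21 FPKM, a log2 fold change of -0.73 (0.00921). The other 5 calls, named outside the rule, were *SGK1* and *TRIB1*, which rose, and *CCN1*, *CCN2* and *MYC*, which fell. *EGR2*, a further EGR gene, was left untested at 13 to 32 reads.

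**Figure D4:**
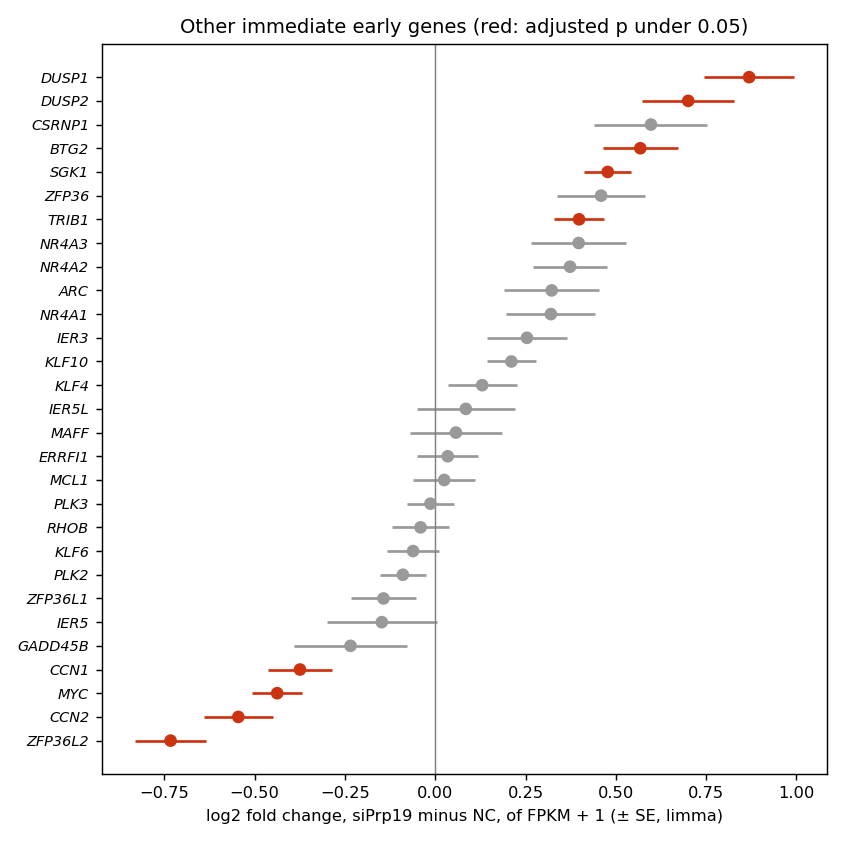
Log2 fold change of FPKM + 1 (horizontal axis, siPrp19 minus NC, points ± SE from limma) for the 29 other immediate early genes tested, ordered by value, in red where the adjusted p-value was under 0.05. The red points are 5 genes above 0, up to *DUSP1* at 0.87, and 4 below 0, down to *ZFP36L2* at -0.73.

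Among the genes that act before these factors, 19 of 20 SRF, ETS and kinase genes were tested, 0 rose and 4 fell (all genes tested, 2.57% and 5.37%), with a median of -0.11. The 4 were *RPS6KA2* (-0.53, adjusted p = 0.0254, limma), a kinase below ERK, *ELK3* (-0.49, 0.0171), an ETS factor, *MAPK14* (-0.48, 0.0101), the p38 alpha kinase, and *MAP2K1* (-0.44, 0.0188), the kinase that activates ERK. *SRF* itself was at 19.1 ± 0.253 and 16.9 ± 2.22 FPKM (log2 fold change -0.18, adjusted p = 0.334). Of 13 MAPK feedback genes, all tested, 0 rose and 3 fell (median -0.09; all genes tested, 2.57% and 5.37%), namely *SPRED1* (-0.68, 0.00703), *PHLDA1* (-0.34, 0.0397) and *SPRY1* (-0.33, 0.0364). *SPRED1* and *SPRY1* encode inhibitors of RAS to ERK signalling. A positive log2 fold change was seen for 5 of the 13, while *DUSP1* and *DUSP2* were counted with the other immediate early genes.

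Among the partners, 7 of 13 other AP-1 bZIP genes were tested and 0 passed (median 0.06). The largest difference was that of *JDP2*, a repressor that dimerises with Jun proteins, at 3.16 ± 0.442 and 2.15 ± 0.321 FPKM (log2 fold change -0.40, adjusted p = 0.0877, limma). All 8 EGR partner and turnover genes were tested and 0 passed (median 0.02). Unadjusted p-values were under 0.05 for 1 of the 7 and 2 of the 8.

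Of 16 genes known as AP-1 targets, 11 were tested, 2 rose and 3 fell (median -0.09), where 2.57% and 5.37% of all genes tested did. *PLAU*, the urokinase gene, was at 14.8, 13.0 and 16.0 FPKM in NC and at 5.64, 5.50 and 5.63 FPKM in siPrp19 libraries, a log2 fold change of -1.24 ± 0.08 (SE, adjusted p = 0.00182, limma). *CXCL8*, which encodes interleukin 8, rose from 90.2 ± 7.84 to 153 ± 22.0 FPKM (0.75, 0.0158). *MMP9*, a matrix metalloproteinase, fell (-0.72, 0.00658). *HBEGF*, an EGF receptor ligand named outside the rule, rose by 0.38 (0.0448). The called genes of this list moved in both directions.

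Stress programmes that can induce *ATF3*, *JUN* or *EGR1* were read from further lists. Of 12 integrated stress response genes, 10 were tested, and *SESN2* rose (0.63, adjusted p = 0.0141, limma) while *PSAT1* fell (-0.56, 0.00845), with a median of -0.13. Of 8 heat shock genes, all tested, 0 rose and *HSP90AA1* fell (-0.42, 0.0492), with a median of -0.11. Of 10 p53 target genes, all tested, *CDKN1A*, the p21 gene, rose (0.62, 0.0216) and 0 fell, with a median of -0.05. The calls were 2 of 10, 1 of 8 and 1 of 10, against 7.94% of all genes tested, and the last 2 counts lie near that share.

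The cell type was read from marker lists. Of 12 adrenergic neuroblastoma markers, 11 were tested, 1 rose and 2 fell (median -0.27; all genes tested, 2.57% and 5.37%), with a summed level of 363 to 389 FPKM in NC and 298 to 307 FPKM in siPrp19 libraries. *CHGB* rose (0.74, adjusted p = 0.0134, limma), while *TH* had 16 to 34 reads. Of 10 mesenchymal markers, 9 were tested, 0 rose and 2 fell (against the same shares), *YAP1* (-1.21, 0.00182) and *WWTR1* (-0.55, 0.0146), with a median of -0.25 and sums of 693 FPKM in each NC library and 576 to 632 FPKM in siPrp19 libraries. Of 6 epithelial markers, 3 were tested and 0 passed (0 with an unadjusted p-value under 0.05, median -0.10, sums of 46.7 to 63.1 and 47.4 to 51.3 FPKM). The largest difference was that of *CLDN4* (0.18, adjusted p = 0.355), while *EPCAM* had 2 to 7 reads and *CDH1* 0 to 2. Of 5 blood markers, only *PTPRC* was tested, which fell (-0.63, 0.0202) from 28.5 ± 3.11 to 18.1 ± 2.04 FPKM, while *CD3E* and *HBB* had 0 reads and *LYZ* 0 to 2. The blood list summed to 24.9 to 30.7 FPKM in NC and 16.9 to 20.5 FPKM in siPrp19 libraries, nearly all of it *PTPRC*. None of the 4 endothelial markers was tested (sums of 0.875 to 1.07 and 0.705 to 1.12 FPKM), and *CDH5* had 0 reads. In bulk RNA, a change in the number of cells of a kind and a change in RNA per cell cannot be told apart.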

How the data were processed

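Per the labels, TRIzol RNA of SK-N-AS cells went into NEBNext Ultra libraries. The submitters' processing notes name HISAT2 2.0.5, featureCounts 1.5.0-p3 and hg38; strandedness is not given in the sources used here. The authors deposited 1 FPKM value per gene and library, that is, fragments relative to exon length and library size, and tested counts by DESeq2, which was not run here. All 58735 identifiers were in GENCODE 29 (GRCh38). FPKM times exon length was a whole multiple of 1 constant for 100% of values (tolerance 0.01 reads), and this gave the recovered reads. Their total was 0.951 to 1.04 times the library size implied by FPKM, being lower in siPrp19 libraries, so the deposited values carry an unstated scaling of a few percent.

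Genes with a mean of at least 1 FPKM were fitted as log2(FPKM + 1) with limma 3.58.1 (R 4.3.3, mean-variance trend), with Benjamini-Hochberg adjustment over all 13718 genes tested and a threshold of 0.05. The procedure was tested on simulated data with libraries drawn independently. That test therefore does not cover close pairs of libraries such as those seen here. Single values were tested by an exact permutation test. Alternatives were a pseudocount of 0.1, no filter, quantile normalization, equal sums, no trend, a replicate block, leaving out each library, 4 libraries, the recorded grouping and voom with TMM on recovered reads. Recovered read totals and averaged close pairs were chosen after seeing the data.

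The named genes were the 10 genes, *PRPF19*, and per further list the called genes, at most 4 by absolute log2 fold change, or the 1 of largest change where none was called. The further lists held other immediate early genes, other AP-1 bZIP genes, SRF, ETS and kinase genes, EGR partners, MAPK feedback genes, AP-1 targets, stress, heat shock and p53 genes, and cell type markers. Some genes of these lists are not reported here by name. The 10 genes and the lists were chosen with earlier results of these data known. Promoters came from RefSeq (GRCh38.p14). Python 3.11.15 with pandas 2.3.3, scipy 1.17.1 and matplotlib 3.10.9 was used.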

Additional observations from a re-analysis of the deposited data

How the results depend on the processing

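The 1089 calls over all genes became 512 without the filter, 679 with equal sums, 2 with 4 libraries, 2 with close pairs averaged and 0 as recorded, where 191 genes had an unadjusted p-value under 0.05 by limma. They were 253 to 1354 when 1 library was left out, lowest without siPrp19c. Calls split into 353 higher and 736 lower, with a median log2 fold change of -0.02 over all genes tested. The split was 248 and 431 with equal sums (median 0.02) and 501 and 586 under quantile normalization (median 0.01). It was 543 and 505 on recovered read totals (median 0.04), which rescale each library as a whole. The excess of lower calls thus varied with the scaling. What the deposited scaling reflects was not tested. Of the 10 genes, 2 were called, against 1 without the filter, 1 on recovered read totals, 1 with the replicate block, 0 with 4 libraries, 0 with close pairs averaged, 0 as recorded and 0 to 2 when 1 library was left out.

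*FOSL2* (-0.05) became 0.0475 under quantile normalization, 0.0198 on recovered read totals and 0.0155 as recorded. *JUNB* (-0.16) became 0.0016 under quantile normalization. *IER2* (-0.04) became 0.0333 under quantile normalization, 0.0022 with equal sums, 0.0335 on recovered read totals, 0.0677 without NCc and 0.1324 without siPrp19a; with 1 library left out it was lowest without siPrp19c (-0.1435), and over all alternatives with close pairs averaged (-0.1786). None of these values passed the threshold. Of 170 values of single genes under the alternatives, *PRPF19* included, 140 kept direction and side of the threshold, 19 lost the call, 2 gained it and 9 reversed. The share of *FOSL1* differed by -5.12 percentage points (-6.90 to -2.47 with 1 library left out) and that of *JUN* by 0.955 (0.814 to 1.06).

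Whether the replicate numbers pair the libraries was not settled. Deviations from the group means correlated at 0.134, -0.049 and 0.204 for a, b and c. Between libraries of different number, the correlations were -0.199 to 0.131. With the replicate block, 928 genes were called and *JUND* missed the threshold (adjusted p = 0.0603, limma). Depth limited *EGR3* most, at 2 to 8 reads. Read-based intervals would cover counting error only.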

Other observations

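*JUN*, *JUNB* and *JUND* have 1 exon each, and the targeted protein acts in splicing. For comparison, 270 protein-coding genes whose merged exons fill the whole span of the gene were tested, a set chosen after seeing the data. A gene with a spliced transcript beside an unspliced one can be among them. In siPrp19 libraries, 10 of them rose and 14 fell (5.19% lower), with a median log2 fold change of 0.01. Of the 10759 other protein-coding genes tested, 306 rose and 662 fell (6.15% lower), with a median of -0.02. These are values without a test.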
